A study of Rattus norvegicus with 10 samples.

Results

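The glycosyltransferases of O-glycans and terminal sugars were followed in hearts of rat fetuses, as messenger RNA. They were taken as the genes whose symbol starts with Galnt, B3gnt, B4galt, B3galt, St3gal, St6gal, St8sia or Fut followed by a digit, and whose mean over all libraries was at least 0.1 FPKM, read fragments scaled to the length of the gene and to the size of the library. Of 60 such symbols among 18025 listed genes, 45 reached this level and 15 did not. RNA-seq had been done on heart tissue of wild-type Sprague-Dawley fetuses at embryonic day 19.5, in 5 libraries from pregnancies of control dams (CON) and 5 from pregnancies of hyperglycemic dams (HG). Dams and sires were 3 months old. HG dams were given streptozotocin, which destroys pancreatic beta cells, into the peritoneum once a day on 3 days, and CON dams received only the citrate buffer on the same schedule. The paper's methods describe injections of females only, and diabetes was checked from the blood glucose of the dams at day 7. The paper's methods place the injections after mating, whereas its introduction places the hyperglycemia before pregnancy. Streptozotocin was thus given to the mother, and the fetuses of both groups carried no altered allele. The sex of the fetuses and the dam or litter of each heart are not given in the labels, so the p-values below measure the spread between these libraries, which may be in part technical.

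These enzymes sit in the membranes of the secretory pathway and build the sugar chains of proteins and lipids one sugar at a time. GALNT enzymes start mucin-type O-glycans by linking N-acetylgalactosamine (GalNAc) to serine or threonine, the B3GNT, B4GALT and B3GALT families lengthen chains with N-acetylglucosamine (GlcNAc) and galactose, and the ST3GAL, ST6GAL, ST8SIA and FUT families cap or decorate them with sialic acid and fucose. In the heart, such chains are carried by ion channels, adhesion receptors, matrix proteins and the gangliosides of the cell membrane. The annotation deposited with the values placed 35 of the 45 genes in the Golgi apparatus and 44 of the 45 in a membrane.

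The 250 bases before the transcription start are shown for Galnt16, Galnt15 and B3galt2, the genes with the largest differences between the groups, and for St3gal5, the most abundant transferase that fell. They are RefSeq sequences of the build GRCr8, 5′ to 3′ on the strand of the gene, whereas the deposited values were made on mRatBN7.2. Capitals mark a GC box (GGGCGG on either strand) or an E-box (CACGTG, which reads the same on both strands), and a TATA box (TATAAA, either strand) was also searched for.
Galnt16 promoter, chr6:105901450-105901699, + strand: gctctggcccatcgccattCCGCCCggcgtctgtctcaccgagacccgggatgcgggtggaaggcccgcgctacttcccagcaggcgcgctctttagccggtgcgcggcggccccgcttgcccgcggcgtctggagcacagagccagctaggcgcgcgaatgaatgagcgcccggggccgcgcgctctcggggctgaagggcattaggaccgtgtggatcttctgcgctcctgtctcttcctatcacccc
Galnt15 promoter, chr16:7233274-7233523, + strand: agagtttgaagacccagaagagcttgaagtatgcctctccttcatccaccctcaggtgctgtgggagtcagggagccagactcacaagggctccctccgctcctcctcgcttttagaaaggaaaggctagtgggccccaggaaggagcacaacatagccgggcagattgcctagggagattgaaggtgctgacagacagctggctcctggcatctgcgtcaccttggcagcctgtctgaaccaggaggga
B3galt2 promoter, chr13:57939474-57939723, + strand: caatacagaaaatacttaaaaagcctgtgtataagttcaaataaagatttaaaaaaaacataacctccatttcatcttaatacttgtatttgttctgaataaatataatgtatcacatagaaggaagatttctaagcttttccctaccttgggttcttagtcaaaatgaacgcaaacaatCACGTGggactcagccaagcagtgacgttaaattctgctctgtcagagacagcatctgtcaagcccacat
St3gal5 promoter, chr4:105692590-105692839, + strand: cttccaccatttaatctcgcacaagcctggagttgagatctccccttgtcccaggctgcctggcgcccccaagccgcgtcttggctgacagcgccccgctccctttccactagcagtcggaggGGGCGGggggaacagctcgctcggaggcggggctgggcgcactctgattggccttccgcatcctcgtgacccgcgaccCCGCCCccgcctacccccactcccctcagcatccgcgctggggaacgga
The 4 promoters differed widely in composition. CpG dinucleotides numbered 30 in Galnt16, 21 in St3gal5, 4 in Galnt15 and 3 in B3galt2, and 94.4%, 83.7%, 36.1% and 27.6% of 27457 RefSeq promoters of the same length held fewer. The median promoter held 6. Galnt16 had 1 GC box, St3gal5 had 2 and B3galt2 had 1 E-box, while Galnt15 had none of the 3 motifs. Among all promoters, 32.4% held a GC box, 5.79% this E-box and 13.1% a TATA box. RefSeq lists 3 starts for Galnt15 and 2 for St3gal5, of which 1 is shown. A promoter entry was found for 36 of the 45 genes. GC content was 69.6% in Galnt16, 68.4% in St3gal5, 57.2% in Galnt15 and 34.4% in B3galt2. A matching run of letters is a description of these windows and was not tied to any factor.

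Gene reads per library numbered 17639895 to 18240006 in CON and 16672876 to 19109844 in HG. Hemoglobin genes took up 3.27 ± 0.873% (CON) and 2.24 ± 0.264% (HG) of all FPKM (SD, n = 5 libraries each). The heart markers were high, and the summed FPKM of 5 cardiomyocyte genes was 7734.7 to 8205.0 in CON and 6117.8 to 6606.7 in HG, with 5 of 5 lower in HG (4 of 5 after quantile normalization). Of 5 markers each, 3 of red cell precursors were lower, 2 of macrophages higher and 1 lower, 2 of fibroblasts higher and 2 lower, 1 of smooth muscle and pericytes higher and 1 lower, 1 of endothelium higher (1 lower with median-of-ratios factors) and 1 of epicardium lower. Either other scaling gave 4 lower for red cell precursors, 1 higher and 1 lower for macrophages, and 1 higher and 2 lower for smooth muscle and pericytes, and median-of-ratios factors 2 higher and 3 lower for fibroblasts. Of neurons and glia, 1 of 2 tested markers was lower, and 3 were under the level filter. The summed level ran from 206.0 to 233.1 FPKM in CON and 235.5 to 324.9 in HG for smooth muscle and pericytes, 58.8 to 107.5 and 39.8 to 56.8 for red cell precursors, and overlapped for endothelium (214.1 to 233.8 and 216.2 to 236.2), fibroblasts (1126.9 to 1282.3 and 1027.6 to 1157.0), macrophages (18.4 to 23.6 and 22.7 to 28.2), epicardium (9.71 to 16.0 and 9.75 to 14.1) and neurons and glia (5.26 to 6.58 and 4.34 to 6.56). The higher sum of smooth muscle and pericytes in HG rested on Cnn1, with means of 82.0 FPKM in CON and 155.6 in HG. Rgs5 fell from 89.7 to 72.2, and Myh11, Pdgfrb and Kcnj8 were not called as deposited. Kcnj8 was called lower under either other scaling. No marker was at 0 in all libraries. In heart tissue, fewer cells of a type and less RNA per cell cannot be told apart, and the part of these shifts in the differences below was not tested.

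With limma on log2(FPKM + 0.1), 17 of the 45 transferase genes differed between the groups at a Benjamini-Hochberg adjusted p under 0.05, 10 higher and 7 lower in HG. That is 37.8% of the genes, where 40.1% of all 14542 genes tested passed (28.4% higher and 11.8% lower), so the transferases did not stand out in number. Groups did not overlap in any library for 13 of the 45 (28.9%), against 27.4% of all genes. The median log2 fold change was 0.05, beside 0.09 over all genes tested, and single genes ranged from -1.26 to 1.02. Added up per library, the 45 genes gave 342.0 ± 7.89 FPKM for CON and 341.4 ± 6.17 for HG (SD, n = 5 each), and the groups overlapped. Median-of-ratios factors, by which values are divided, were 0.967 to 0.975 in CON and 1.02 to 1.06 in HG. With them the sum was lower in HG, without overlap. Galnt15 also rose by more than 1 on the log2 scale and Galnt16 and B3galt2 fell by more than 1. These are 3 of 45 genes, where 1.94% of all genes passed this limit as well (0.866% higher and 1.07% lower). Galnt15 was under the limit with median-of-ratios factors and with quantile normalization (log2 fold change 0.95 in both).

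The scaling of the libraries bears on these counts, because the median of all genes was 0.09 with the deposited FPKM, 0.01 when median-of-ratios factors were applied and 0.02 when values were quantile normalized (log2 fold change). With median-of-ratios factors 5 transferase genes were higher and 9 lower, where 33.2% of all genes were called (15.7% higher and 17.5% lower). Quantile normalization gave 5 higher and 9 lower, where 33.9% of all genes were called (18% higher and 15.9% lower). All 7 genes called lower and 5 of the 10 called higher (Galnt2, Galnt6, Galnt15, St3gal6 and Fut11) were called in every fit that held them, out of 23 fits. B3gnt2, B4galt3, St3gal4, Fut4 and Fut10 lost the call under both other scalings, while Galnt7 and Galnt11 were called lower under both.

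**Figure D1:**
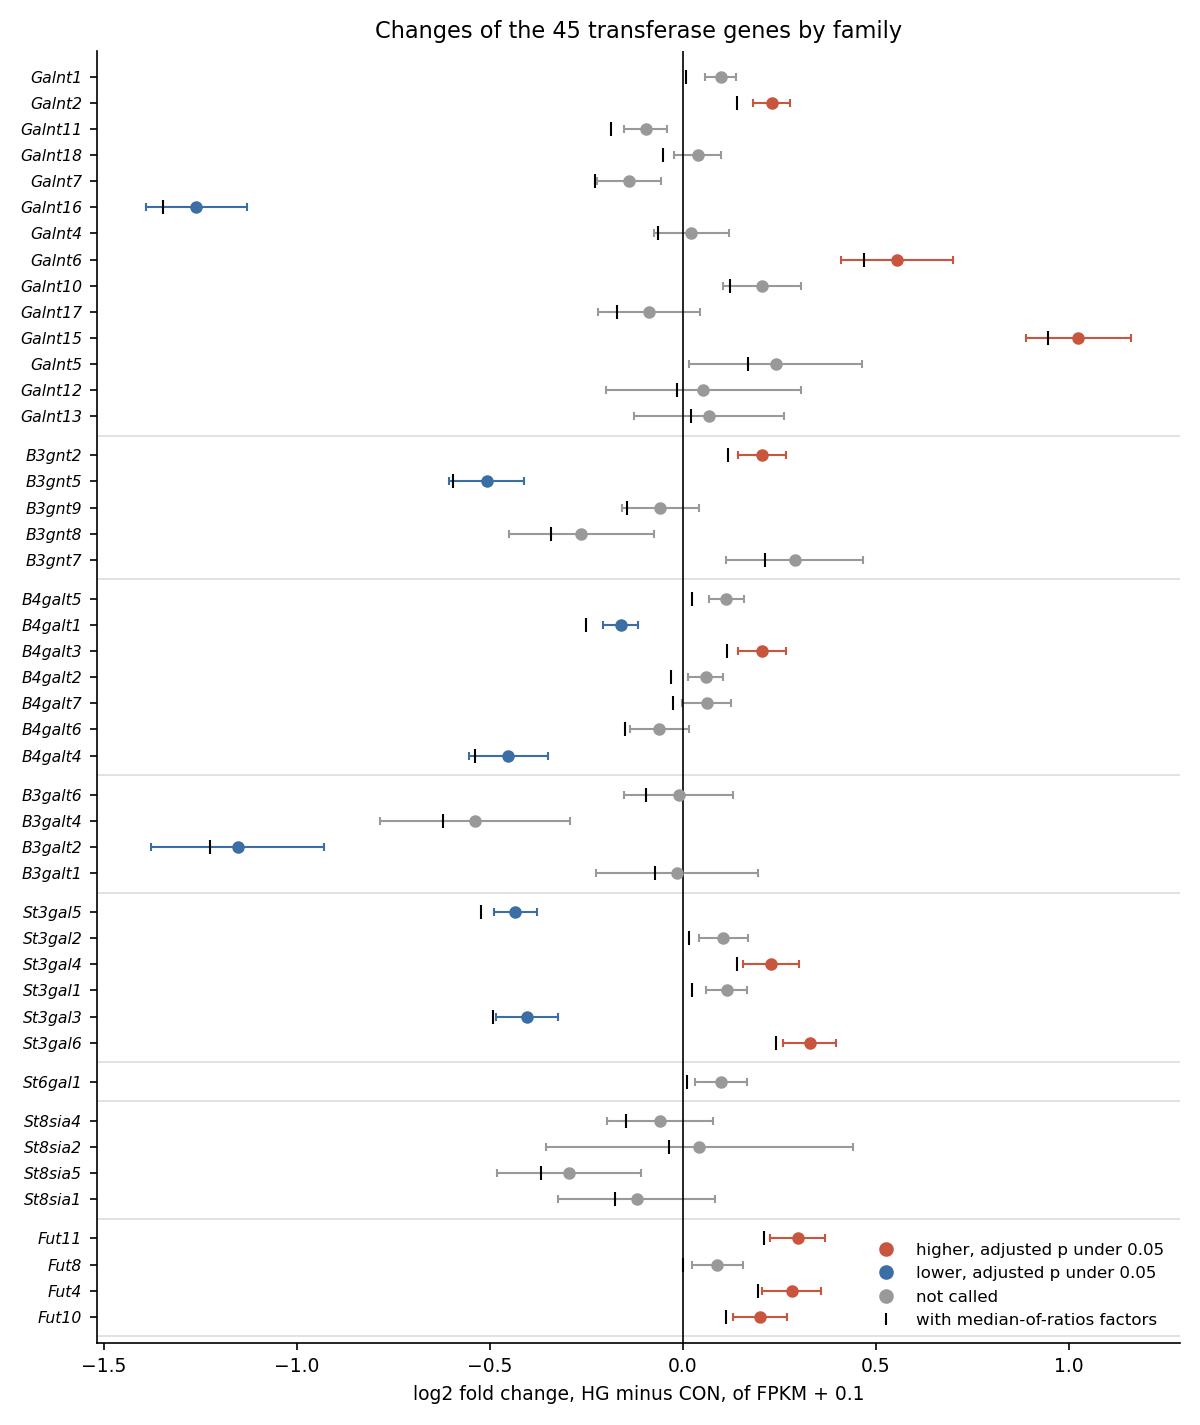
Log2 fold change (HG minus CON, of FPKM + 0.1) of the 45 transferase genes, grouped by family and ordered by level, with bars for the standard error (n = 5 libraries per group) and black ticks for the value with median-of-ratios factors. Galnt16 (-1.26) and B3galt2 (-1.15) lie farthest to the left and Galnt15 (1.02) farthest to the right, and the ticks lie left of all 45 points.

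The GALNT family, which starts mucin-type chains, held 14 of the 45 genes, of which 3 were higher, 1 was lower and 10 were not called (3 higher and 3 lower with either other scaling). Called were 28.6% of them (42.9% with either other scaling), where 40.1% of all genes were (33.2% and 33.9%). The family's summed level was 108.3 ± 3.45 FPKM for CON and 111.9 ± 3.74 for HG (SD, n = 5 each), with overlapping groups, and the difference of 3.52 FPKM turned to -3.34 with median-of-ratios factors. Galnt1 and Galnt2, which are expressed in most tissues and start chains on unmodified protein, made up the larger part of it in each library.

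Galnt16 (NCBI Gene 362760), for a GALNT enzyme, had the strongest decrease of the 45 genes. It stood at 6.05, 5.85, 6.90, 4.59 and 5.87 FPKM in CON 1 to 5, and at 2.41, 2.59, 2.28, 2.92 and 1.78 in HG 1 to 5. Every HG library was thus below every CON library, the nearest being CON 4 and HG 4. Its log2 fold change was -1.26 ± 0.130 (SE, limma, adjusted p = 2.22e-05), and it stayed between -1.34 and -1.16 when any 1 library was left out. Its CpG-rich promoter is the first of those shown above. A RefSeq long noncoding RNA overlaps Galnt16, and the strand setting of the counting is not given in the sources used here.

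Galnt15 (100360475), a low-level relative, moved the other way. Its level was 0.364, 0.444, 0.448, 0.424 and 0.394 FPKM in CON 1 to 5 and 1.07, 1.06, 1.09, 0.757 and 0.802 in HG 1 to 5. HG 4 and HG 5 were lower than the other HG libraries but still above all of CON. Its log2 fold change was 1.02 ± 0.136 (SE, limma, adjusted p = 0.000127), from a mean of only 65.2 reads per library. Left out in turn, CON 1, HG 1, HG 2 and HG 3 each brought it under 1, the lowest value being 0.98.

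Galnt6 (100361647) encodes an enzyme known to glycosylate fibronectin. It was at 1.24, 1.08, 1.44, 1.38 and 1.64 FPKM in CON 1 to 5 and at 2.04, 1.84, 2.69, 1.56 and 2.13 in HG 1 to 5. HG 4 lay below the highest control, CON 5, so the groups overlapped in these libraries. Galnt6 rose by 0.55 ± 0.145 (log2 fold change with SE, limma, adjusted p = 0.00917).

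Galnt2 (292090) rose by 0.23 (adjusted p = 0.00257, limma), from 23.0 to 25.4 FPKM in CON libraries and 25.7 to 30.1 in HG libraries, without overlap. Galnt1 (79214), the most abundant of the family, read 36.0, 39.4, 37.2, 36.5 and 36.3 FPKM in CON 1 to 5 and 38.4, 39.6, 40.2, 37.9 and 42.5 in HG 1 to 5. CON 2 was within the range of HG, and the log2 fold change of 0.10 did not pass (adjusted p = 0.0727, limma). The 9 other GALNT genes that were not called had log2 fold changes from -0.14 (Galnt7) to 0.24 (Galnt5). Among them were Galnt7, Galnt10 and Galnt4, whose enzymes prefer peptides that already carry GalNAc, at means of 6.23, 1.12 and 2.65 FPKM in CON and 5.65, 1.31 and 2.67 in HG. Galnt4 shares its locus with Poc1b and Galnt11 overlaps Kmt2c, so reads could be split between these neighbours. In all, 20 of the 45 genes overlap another RefSeq gene and 7 a protein-coding gene.

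A share within a family does not change when a library is divided by a single factor, as with median-of-ratios factors. It can change with quantile normalization, and it moves when another gene of the family changes. Shares were taken from the deposited FPKM and are given as a description with no test. Galnt16 made up 5.39 ± 0.680% of the GALNT sum in CON and 2.15 ± 0.438% in HG, Galnt15 0.383 ± 0.0235% and 0.853 ± 0.133%, and Galnt2 22.1 ± 0.819% and 25.1 ± 1.32% (SD, n = 5 each). These 3 shares did not overlap between the groups, whereas those of the 11 other GALNT genes did. In FPKM the same 3 genes were without overlap. They are 21.4% of the family, where 27.4% of all genes tested had no overlap, so the family did not stand out. Galnt1 held 34.2 ± 0.934% in CON and 35.5 ± 1.05% in HG.

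**Figure D2:**
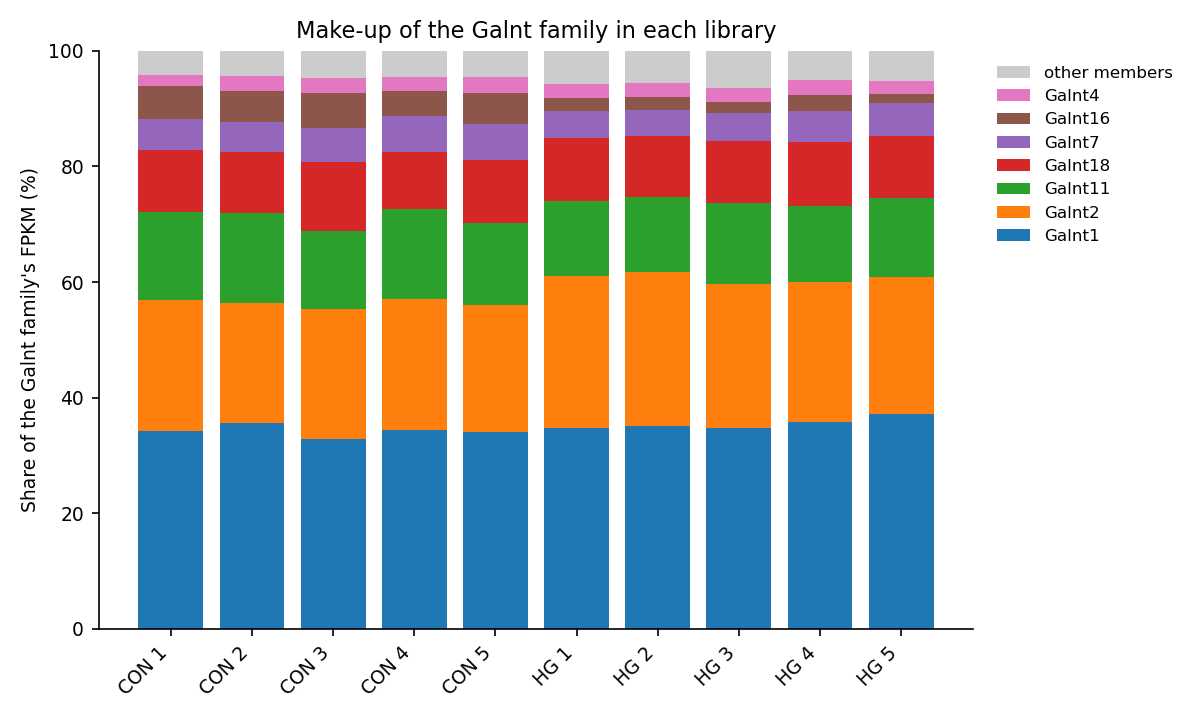
Share of the GALNT family's summed FPKM (%) held by its 7 most abundant genes and by all others together, 1 bar per library (CON 1 to 5, HG 1 to 5). The brown band of Galnt16 narrows from 4.31 to 6.11% in CON to 1.56 to 2.75% in HG, and the orange band of Galnt2 widens from 20.8 to 22.8% to 23.6 to 26.7%.

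Of the B3GNT genes, which add GlcNAc to galactose and so prepare chain extension, 5 were tested, 1 higher and 1 lower. That is 40% called (20% with either other scaling), where 40.1% of all genes were (33.2% and 33.9%). B3gnt5 (116740) encodes the enzyme that adds GlcNAc to lactosylceramide and opens the lacto and neolacto series of glycolipids. It fell from 2.83, 3.28, 2.84, 2.99 and 3.06 FPKM in CON 1 to 5 to 2.17, 1.80, 1.82, 2.48 and 2.19 in HG 1 to 5. No HG library reached the lowest control, and the log2 fold change was -0.51 ± 0.0962 (SE, limma, adjusted p = 0.00136). B3gnt2 (305571), the main polylactosamine synthase, stood at 3.67, 3.69, 3.97, 3.50 and 3.88 FPKM in CON 1 to 5 and at 4.09, 4.67, 4.37, 4.18 and 4.31 in HG 1 to 5. These groups did not overlap either, and the log2 fold change was 0.20 ± 0.0626 (SE, limma, adjusted p = 0.0207), which was not called under the other scalings (0.12 and adjusted p = 0.165 with median-of-ratios factors). Within the family, B3gnt2 held 37.0 ± 1.77% in CON and 44.6 ± 2.39% in HG, and B3gnt5 29.7 ± 1.70% and 21.6 ± 3.19% (SD, n = 5 each), both without overlap. B3gnt9, B3gnt8, which partners B3GNT2, and B3gnt7, an enzyme of keratan sulfate, had log2 fold changes of -0.06, -0.26 and 0.29 that did not pass.

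All 7 B4galt genes, which add galactose to GlcNAc or glucose, were tested. Of these, 1 was higher and 2 were lower (0 higher and 2 lower with either other scaling). That is 42.9% called (28.6% with either other scaling), where 40.1% of all genes were (33.2% and 33.9%). B4galt4 (303923), which galactosylates sulfated GlcNAc in keratan sulfate, was at 4.17, 4.21, 3.20, 3.20 and 3.47 FPKM in CON 1 to 5 and at 2.90, 2.33, 2.46, 2.58 and 2.89 in HG 1 to 5. CON 3 and CON 4 came close to the highest HG values, but the groups did not overlap, and B4galt4 fell by 0.45 ± 0.102 (log2 fold change with SE, limma, adjusted p = 0.00413). B4galt1 (24390), the main galactosyltransferase of N-glycans, was lower by a small step, with 16.9 to 17.9 FPKM in CON and 14.7 to 16.6 in HG (log2 fold change -0.16, limma, adjusted p = 0.0131). B4galt3 (494342) was at 14.3 to 16.6 and 15.9 to 19.9 FPKM (log2 fold change 0.20, limma, adjusted p = 0.0210), with overlap and no call under the other scalings. The most abundant of the family was B4galt5 (362275), 1 of the 2 genes for lactosylceramide synthase. It read 22.0, 24.1, 24.9, 23.5 and 24.1 FPKM in CON 1 to 5 and 25.2, 25.9, 27.2, 26.1 and 23.9 in HG 1 to 5, so that only HG 5 fell within the CON range. Its log2 fold change of 0.11 missed the threshold (limma, adjusted p = 0.0641). B4galt6, the other lactosylceramide synthase gene, B4galt2 and B4galt7, which acts in the linker of proteoglycans, had log2 fold changes of -0.06, 0.06 and 0.06 and were not called. The family's sum was 87.0 ± 1.51 FPKM for CON and 89.1 ± 2.30 for HG (SD, n = 5 each), with overlapping groups, and the difference of 2.08 FPKM turned to -3.35 with median-of-ratios factors.

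B3galt genes, which add galactose to GlcNAc, GalNAc or galactose, were the least abundant family, with a sum of 4.75 to 5.69 FPKM in CON and 3.74 to 4.53 in HG. B3galt2 (686081), for an enzyme of type I chains, was the member that passed, and it fell in every HG library. It was at 0.915, 0.540, 0.635, 0.505 and 0.962 FPKM in CON 1 to 5 and at 0.340, 0.134, 0.336, 0.241 and 0.269 in HG 1 to 5, with no overlap and a wide spread in CON. The log2 fold change was -1.15 ± 0.223 (SE, limma, adjusted p = 0.00155), from a mean of 39 reads per library. B3galt2 lies over Cdc73 in the RefSeq annotation, a gene of the RNA polymerase II-associated PAF complex that was looked up after the values were seen. Cdc73 had a log2 fold change of 0.10 (limma, adjusted p = 0.241), with means of 4.44 FPKM in CON and 4.77 in HG, and how the authors' counting treated the shared stretch was not tested.

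B3galt6 (298690), the most abundant of the family and an enzyme of the proteoglycan linker, was not called. It stood at 1.83, 2.36, 2.65, 2.75 and 2.54 FPKM in CON 1 to 5 and at 3.01, 2.70, 1.89, 2.01 and 2.50 in HG 1 to 5, and both groups covered nearly the same range. Its log2 fold change was -0.01 (limma, adjusted p = 0.962). B3galt4, which makes ganglioside GM1, ranged from 1.11 to 2.27 FPKM in CON and from 0.763 to 1.94 in HG, and its log2 fold change of -0.54 ± 0.246 (SE, limma, adjusted p = 0.101) did not pass despite its size.

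**Figure D3:**
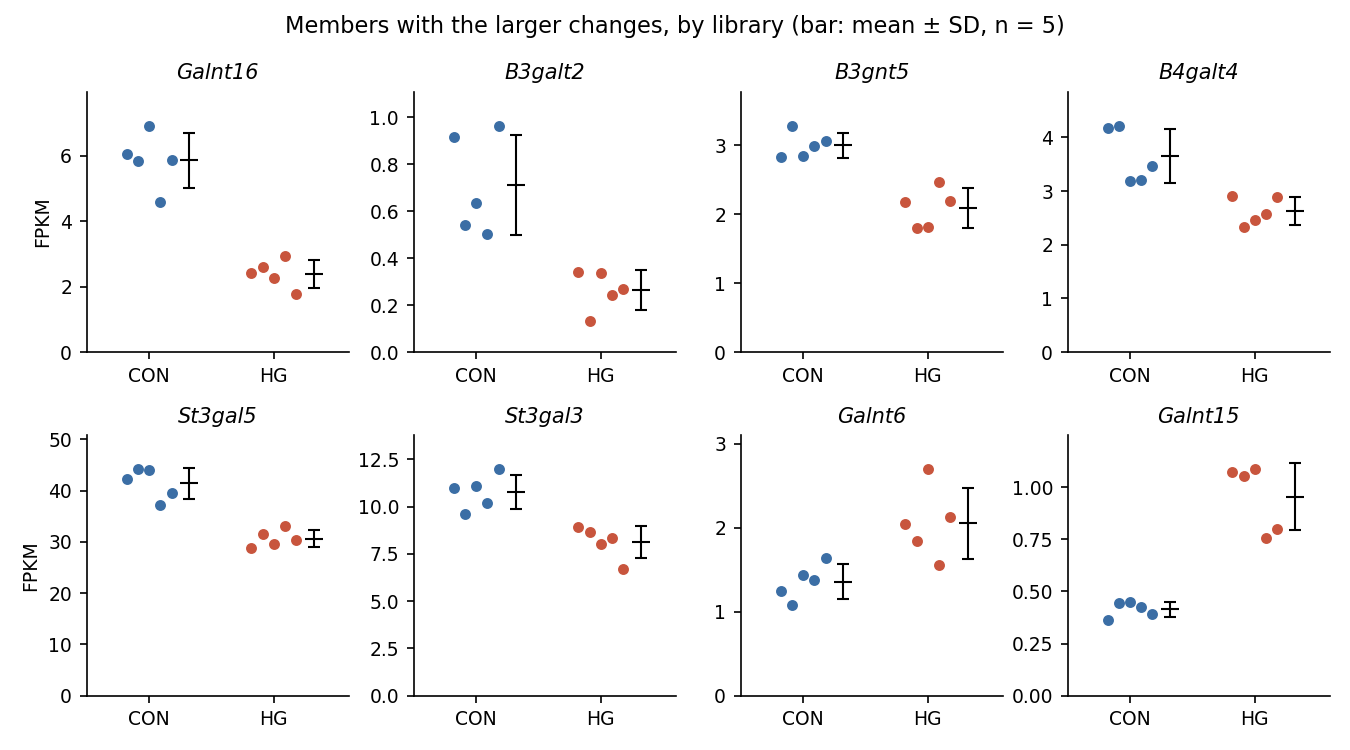
FPKM per library (points) with the group mean and SD (bars, n = 5) for the 8 transferase genes that were called and moved by at least 0.4 on the log2 scale. In 7 panels the CON and HG points do not overlap, and in the panel of Galnt6 HG 4 (1.56) lies below CON 5 (1.64). The genes were picked by their difference in these same libraries, so the separation adds no evidence. Among all genes tested, 27.4% did not overlap.

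Sialic acid is added to galactose by the ST3GAL enzymes, whose 6 genes were all tested. Of these, 2 were higher and 2 lower, which became 1 higher and 2 lower under either other scaling. That is 66.7% called as deposited, where 40.1% of all genes were, and 50% under either other scaling, where 33.2% and 33.9% were. St3gal5 (83505), the gene for GM3 synthase, which opens the ganglioside series from lactosylceramide, was the most abundant of all 45 genes in CON. Its level was 42.2, 44.1, 44.0, 37.1 and 39.6 FPKM in CON 1 to 5 and 28.7, 31.4, 29.5, 33.0 and 30.3 in HG 1 to 5. The nearest libraries were CON 4 and HG 4, and St3gal5 fell by 0.43 ± 0.0553 on the log2 scale (SE, limma, adjusted p = 9.53e-05). Per length, it exceeded Galnt1 in 5 of 5 CON libraries and lay below it in 5 of 5 HG libraries.

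St3gal3 (64445), which sialylates galactose on GlcNAc in type I and type II chains, also fell. Its values were 11.0, 9.61, 11.1, 10.2 and 12.0 FPKM in CON 1 to 5 and 8.91, 8.65, 8.05, 8.34 and 6.71 in HG 1 to 5. HG 5 was the lowest, no HG library reached CON 2, and the log2 fold change was -0.40 ± 0.0811 (SE, limma, adjusted p = 0.00197).

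St3gal6 (304023) and St3gal4 (363040), which sialylate type II chains, went up. St3gal6 rose by 0.33 (limma, adjusted p = 0.00242), from 4.16 to 4.71 FPKM in CON to 4.93 to 6.23 in HG, without overlap. St3gal4 rose by 0.23 (limma, adjusted p = 0.0254), with ranges of 10.7 to 12.3 and 11.5 to 15.3 FPKM that overlapped, and it was not called under the other scalings or without CON 2, HG 1 or HG 2 (highest adjusted p over all fits 0.161). St3gal1 and St3gal2, which sialylate core O-glycans, had log2 fold changes of 0.11 and 0.10 that did not pass.

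The sum over the family was 96.9 ± 4.64 FPKM for CON and 88.9 ± 2.93 for HG (SD, n = 5 each), with overlap. With median-of-ratios factors every HG sum lay below every CON sum. St3gal5 supplied 42.7 ± 1.74% of the family's sum in CON and 34.4 ± 1.72% in HG, while St3gal2 went from 17.8 ± 0.772% to 20.8 ± 0.627% and St3gal6 from 4.55 ± 0.226% to 6.26 ± 0.510%, all without overlap. A share also moves when another gene of the family changes. The level of St3gal2 itself was not called and overlapped between the groups, at 15.1 to 18.7 FPKM in CON and 17.4 to 19.5 in HG.

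St6gal1 (25197), which caps N-glycans with sialic acid in another linkage, was the tested ST6GAL gene and did not pass. It was at 9.60, 8.08, 7.27, 8.44 and 7.75 FPKM in CON 1 to 5 and at 8.72, 8.82, 8.81, 8.82 and 8.72 in HG 1 to 5 (log2 fold change 0.10, limma, adjusted p = 0.263). CON libraries thus spread on both sides of the HG values, which lay close together.

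None of the 4 tested ST8SIA genes, which add sialic acid to sialic acid, was called. Leading them was St8sia4 (116696), a polysialyltransferase of the neural cell adhesion molecule, with 4.97, 4.62, 6.06, 6.60 and 6.21 FPKM in CON 1 to 5 and 6.55, 4.86, 6.88, 4.81 and 4.39 in HG 1 to 5. The groups covered the same range (log2 fold change -0.06, limma, adjusted p = 0.765). St8sia2, the second polysialyltransferase, St8sia5 and St8sia1, the gene for ganglioside GD3 synthase, had means of 0.883, 0.481 and 0.175 FPKM in CON and 0.810, 0.382 and 0.155 in HG, with log2 fold changes of 0.04, -0.29 and -0.12. For St8sia2 the means and the log2 fold change differed in sign, with CON 4 at 0.154 FPKM far below the other CON libraries.

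Of 4 fucosyltransferase genes tested, 3 were higher in HG, where 28.4% of all genes were (1 of 4, Fut11, with either other scaling). The sum of the family was 18.2 to 20.3 FPKM in CON and 21.1 to 22.9 in HG, without overlap as deposited. With median-of-ratios factors the sum of HG 5 fell within the CON range. Fut11 (286971), for a fucosyltransferase of the endoplasmic reticulum, was at 5.90, 5.56, 6.13, 6.85 and 5.59 FPKM in CON 1 to 5 and at 7.01, 8.23, 7.53, 7.29 and 6.92 in HG 1 to 5. CON 4 came within reach of HG 5, but no library overlapped, and the log2 fold change was 0.30 ± 0.0707 (SE, limma, adjusted p = 0.00547). Fut4 (60670), an enzyme of the Lewis x structure, was at 3.10 to 4.04 FPKM in CON and 4.30 to 4.61 in HG (log2 fold change 0.28, limma, adjusted p = 0.0118). Fut10 (497619), a relative of Fut11, was at 3.24 to 3.74 and 3.58 to 4.26 FPKM (log2 fold change 0.20, limma, adjusted p = 0.0402), and it was called in only 11 of 23 fits. Fut8, which adds the core fucose of N-glycans, had a log2 fold change of 0.09 (limma, adjusted p = 0.301). The shares of all 4 within the family overlapped between the groups, with Fut11 at 31.6 ± 1.71% (CON) and 33.5 ± 1.38% (HG; SD, n = 5 each).

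Measured against the pathways in the deposited annotation, 13 of the 45 genes belonged to the lacto and neolacto series of glycolipids, and 10 of these were called, 5 higher and 5 lower (76.9%, where 40.1% of all genes were called). With either other scaling 6 of the 13 were called, 1 higher and 5 lower (46.2%, where 33.2% and 33.9% of all genes were called), because B3gnt2, B4galt3, St3gal4 and Fut4 lost the call. The largest pathway, other types of O-glycan, held 19 of the genes with 7 called (36.8%, and 8 called with either other scaling). The mucin-type O-glycan pathway held 17 with 4 called (23.5%, and 6 called with either other scaling), and keratan sulfate held 10 with 5 called (50%, and 3 called with either other scaling, without B3gnt2 and B4galt3). The ganglio series held 6 with 1 called under each scaling, which was St3gal5. Mannose type O-glycan, a smaller pathway, held 5 with 4 called, the highest share (80%, and 2 called with either other scaling, 40%). Various types of N-glycan held 5 with 3 called (60%, and 2 called with either other scaling). N-glycan held 5 with 2 called (40%, and 1 called with either other scaling). Each remaining pathway held 1 to 3 of the genes, with at most 1 called. Genes can belong to several of these pathways, and 6 had none.

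Lactosylceramide is the branch point from which the ganglio, globo and lacto series of glycolipids start, and its enzymes were set side by side after the values were seen. St3gal5 and B3gnt5, which use it, fell as given above. A4galt, the gene for globotriaosylceramide synthase, which uses it too, was at 13.0, 10.5, 11.1, 10.8 and 10.2 FPKM in CON 1 to 5 and at 4.91, 3.38, 4.64, 5.31 and 4.37 in HG 1 to 5. It also fell in every HG library (log2 fold change -1.29 ± 0.109, SE, limma, adjusted p = 5.31e-06). Genes of its synthesis did not fall beyond the threshold, as B4galt5 and B4galt6 were not called and Ugcg, the glucosylceramide synthase, was at 10.8 to 12.4 FPKM in CON and 12.5 to 14.1 in HG (log2 fold change 0.18, limma, adjusted p = 0.0112; 0.09 and adjusted p = 0.152 with median-of-ratios factors). B4galnt1, which lengthens GM3, was under the filter, with a mean of 0.0284 FPKM in CON and 0.0445 in HG.

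**Figure D4:**
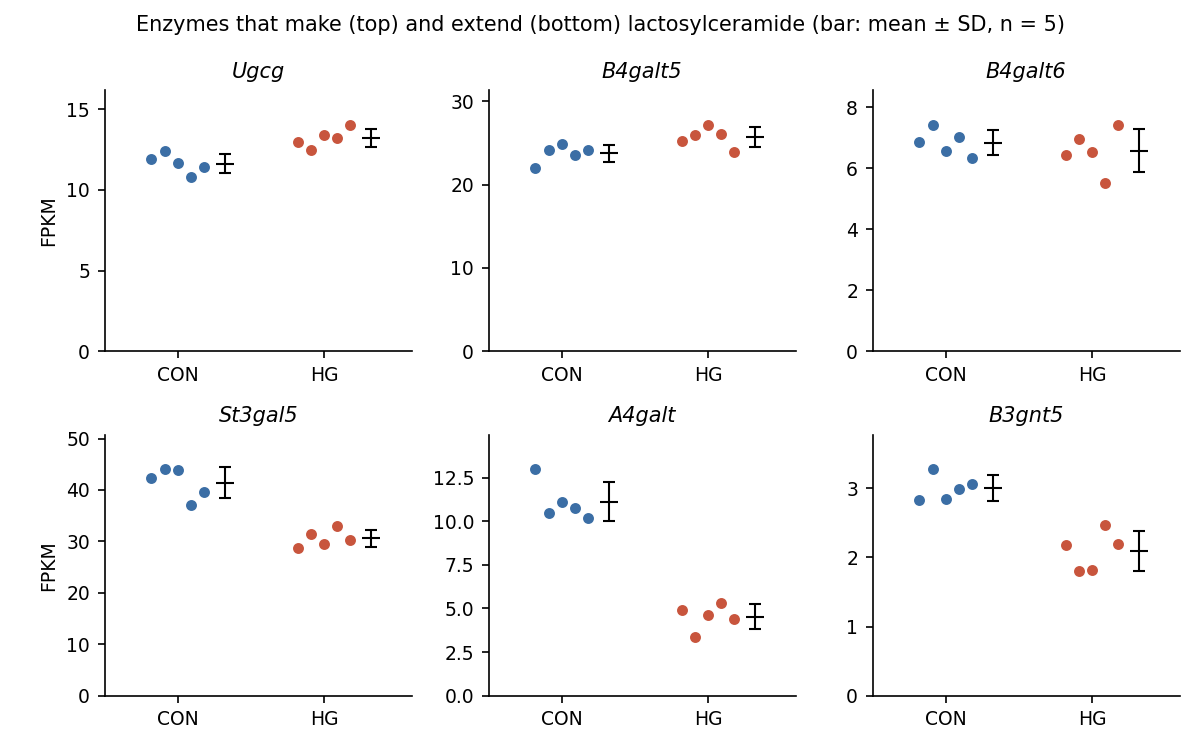
FPKM per library (points) with the group mean and SD (bars, n = 5) for genes that make lactosylceramide (Ugcg, B4galt5, B4galt6, top) and genes that extend it (St3gal5, A4galt, B3gnt5, bottom). All HG points lie below all CON points in the 3 lower panels, and in the upper panels the HG points of Ugcg lie above CON while those of B4galt5 and B4galt6 overlap with CON.

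Other genes of the pathway were taken from a list of 73, of which 60 were tested, 10 were under the filter and 3 were not analysed here. Of the 60, 24 were higher and 8 lower in HG (53.3% called, where 40.1% of all genes were). With either other scaling 10 were higher and 12 lower (36.7% called, where 33.2% and 33.9% of all genes were). Their median log2 fold change was 0.13, beside 0.09 over all genes. Of the genes for O-GalNAc cores and branches, 1 of 5 passed (2 of 5, both lower, with either other scaling). That is 20% called (40% with either other scaling), where 40.1% of all genes were (33.2% and 33.9%). The 1 that passed as deposited was Gcnt1, the branching enzyme that adds GlcNAc to the core. It fell from 6.99 ± 0.458 FPKM in CON to 4.61 ± 0.444 in HG (log2 fold change -0.59, limma, adjusted p = 8.12e-05). C1galt1, the enzyme that turns GalNAc into the core, and its chaperone gene C1galt1c1 were not called (log2 fold changes 0.23 and -0.04). C1galt1c1 was called lower with median-of-ratios factors (log2 fold change -0.13, limma, adjusted p = 0.0275) and with quantile normalization (-0.13, adjusted p = 0.0269). Among the 4 tested sialyltransferases of GalNAc, St6galnac2 was lower at 21.3 ± 1.80 and 15.9 ± 1.24 FPKM (log2 fold change -0.41, limma, adjusted p = 0.000498) and St6galnac3 higher at 0.558 ± 0.0545 and 0.792 ± 0.0525 (log2 fold change 0.44, limma, adjusted p = 0.00858). With median-of-ratios factors St6galnac4 was called lower too (log2 fold change -0.18, limma, adjusted p = 0.0455). Called were thus 50% as deposited, 75% with these factors and 50% when quantile normalized, where 40.1%, 33.2% and 33.9% of all genes were.

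Both tested synthases of LacdiNAc, a chain end of GalNAc on GlcNAc, rose. B4galnt3 was at 0.260 ± 0.111 FPKM in CON and 0.679 ± 0.0425 in HG (log2 fold change 1.17, limma, adjusted p = 0.000647), and B4galnt4 at 1.61 ± 0.321 and 2.80 ± 0.487 (log2 fold change 0.77, limma, adjusted p = 0.00146). They stood in a list of 6 tested genes for the synthesis of LacdiNAc and glycolipids, of which 4 were called under each scaling. That is 66.7%, where 40.1% of all genes were called as deposited and 33.2% and 33.9% under the other scalings. The other 2 called were lower, B3galnt2, a GalNAc transferase, and A4galt, which transfers galactose and not GalNAc.

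Of 18 genes of O-mannose and O-fucose chains 7 were higher and 1 lower (5 and 3 when scaled by median-of-ratios factors, 5 and 4 when quantile normalized). Called were thus 44.4%, 44.4% and 50%, where 40.1%, 33.2% and 33.9% of all genes were. Named by size were Pomt1, which starts the O-mannose chains of dystroglycan, at 8.49 ± 0.324 and 11.3 ± 0.359 FPKM (log2 fold change 0.41, limma, adjusted p = 3.52e-05) and Poglut1, which adds glucose to Notch, at 9.36 ± 1.11 and 12.8 ± 0.813 (log2 fold change 0.45, limma, adjusted p = 0.000748). Sugar nucleotide supply and transport had 12 of 19 genes higher and 2 lower, which became 2 higher and 2 lower under either other scaling. That is 73.7% called as deposited and 21.1% under either other scaling, where 40.1%, 33.2% and 33.9% of all genes were. The 2 that stayed higher were Galk1, galactokinase, at 40.0 ± 3.53 FPKM in CON and 56.3 ± 4.30 in HG (log2 fold change 0.49, limma, adjusted p = 0.000153) and Galt of the same pathway (log2 fold change 0.29, limma, adjusted p = 0.000964). The 2 lower were Gne, whose enzyme controls the synthesis of sialic acid (log2 fold change -0.37, limma, adjusted p = 0.00217), and Uap1, which makes UDP-GlcNAc (log2 fold change -0.22, limma, adjusted p = 0.0250). Of 8 genes that remove terminal sugars, 2 were higher and 1 lower (0 and 1 with either other scaling). These are 37.5% called (12.5% with either other scaling), beside the same shares of all genes.

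The 15 transferase genes under the filter were B3galt5, B3galt9, B3gnt3, B3gnt4, B3gnt6, Fut1, Fut2, Fut7, Fut9, Galnt3, Galnt8, Galnt9, Galnt14, St6gal2 and St8sia6. Fut7 at 0.0390 FPKM and St8sia6 at 0.0274 came nearest to it from below, and Galnt13 at 0.103 and B3galt1 at 0.165 from above. Galnt14 had at most 13 reads in a library, with 0.00401 to 0.0196 FPKM in CON and 0.0327 to 0.0501 in HG, and at this depth no difference was tested.

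Precision followed the level. Among libraries of a group, the median coefficient of variation was 6.27% for the 20 genes at 5 FPKM or more and 27.4% for the 11 genes under 1 FPKM, which had means of 16.5 to 100.2 reads.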

How the data were processed

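Stranded mRNA libraries of 5 CON and 5 HG fetal hearts were grouped by the titles in the labels. The authors deposited FPKM per gene, read numbers divided by gene length and library size, with GO terms and KEGG pathways, and the submitters' processing notes name fastp, HISAT2, HTSeq, R 3.2.0 and the build mRatBN7.2. The annotation and the strand setting are not given in the sources used here. The paper's methods speak of a library from pooled RNA, whereas the values differ in each library. A figure legend there has cardiomyocytes in place of the heart tissue of the labels, which were followed. No per-sample column was left out (0 unused), and no 2 libraries were identical.

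Tables were handled in Python 3.11.15 (pandas 2.3.3, numpy 2.4.6) and figures made in matplotlib 3.10.9. Genes averaging 0.1 FPKM or more were fitted as log2(FPKM + 0.1) with limma 3.58.1 in R 4.3.3 (empirical Bayes with a trend, no covariate), which took the place of DESeq because FPKM are not counts. P-values were adjusted over all 14542 genes (Benjamini-Hochberg) and called under 0.05. Fold changes on this scale understate those of low genes. All values were whole multiples of 1 read within 0.05 of a read in 100% of genes, which gave the reads per gene used for depth and for voom (98.2% of genes exact in simulated data). On simulated data of 14542 genes for HG against CON, limma called 67 of 100 genes changed by 0.5 and 83 of 100 changed by 1 on the log2 scale, with 8 unchanged genes called, and 0 when nothing was changed. Only these genes were changed there, whereas 40.1% of all genes were called in the data, so the simulated rates may not carry over.

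Each library is given for genes called with a log2 fold change of at least 0.4 in size and for the most abundant gene of each family. Ranges or means are given for the rest, and pathway genes were named by the same threshold. Cdc73, Poc1b, Kmt2c and Ugcg, and Galt, Gne, Uap1, C1galt1, C1galt1c1, B3galnt2 and B4galnt1, were named after their values were seen. The genes and lists were chosen with earlier results of these data known. Other settings tried were a pseudocount of 0.01 or 1, the filter at 1 FPKM or absent, 2 other scalings (quantile normalization, median-of-ratios factors), omission of hemoglobin genes or of each library in turn, array weights, no trend, a replicate block, a Y chromosome covariate and voom on the recovered reads.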

Additional observations from a re-analysis of the deposited data

Results flagged for a closer look

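In each group the highest and lowest library of all 45 transferase genes was compared with the other 4, by the gap to its nearest neighbour over the whole range (Dixon's critical value 0.71 for 5 libraries). Of 90 groups, 3 passed, and chance alone flags about 1 in 20. B3galt1 was at 0.278 FPKM in CON 4, above the 0.136 to 0.143 of the other CON libraries. St8sia2 was at 0.154 FPKM in CON 4, below the 0.950 to 1.16 of the others. St8sia5 was at 0.363 FPKM in CON 5, below the 0.493 to 0.530 of the others. All 3 genes had low levels, and none was called between CON and HG.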

How the results depend on the processing

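Over 22 alternatives the 45 transferase genes gave 14 to 19 calls, against 17. Higher calls went from 10 to 5 with median-of-ratios factors and to 5 with quantile normalization. Both scalings also lowered the median of all genes (0.01 and 0.02, against 0.09). Genes past a log2 fold change of 1 went from 3 to 1 with a pseudocount of 1 and to 1 with a filter at 1 FPKM, which removed Galnt15 and B3galt2 from the test. They went to 2 with either other scaling, without Galnt15. With median-of-ratios factors, the HG minus CON differences of the family sums became -3.34 FPKM for Galnt (3.52 as deposited), -1.005 for B3gnt (-0.396), -3.35 for B4galt (2.08), -13.7 for St3gal (-8.00) and 1.81 for Fut (3.08).

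B3galt6, near 0 as reported (-0.01), was at 0.0120 with hemoglobin genes left out and between -0.104 and 0.0703 with 1 library left out, and St8sia4 (-0.06) between -0.144 and 0.0150 with 1 library left out. With 1 library left out, 14 to 18 genes were called, 7 to 11 higher and 7 to 8 lower, 2 to 3 passed the fold limit and 26 to 28 of the pathway list were called. The lowest count, 14, was without CON 4, where B3gnt2, B4galt3 and Fut10 were lost. Over 482 alternative values of single genes, 444 kept their direction and side of the threshold, 25 lost the call, 6 gained it and 7 changed sign.

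Libraries with the same replicate number did not deviate together (correlations from -0.13 to 0.11), so they share only a number. With the number as a block, 17 transferase genes were called, 9 higher and 8 lower, and Fut10 was lost (adjusted p = 0.0987, limma). Of all genes, 5096 were called with the block and 5836 without.

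Depth limits the 11 genes under 1 FPKM, whose mean reads were 16.5 to 100.2 per library.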
